A study of Nothobranchius furzeri with 228 samples.

Results

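The gene module described here holds 150 of the 26739 genes counted in fin clips of *Nothobranchius furzeri*, the turquoise killifish, an annual fish kept as a model of vertebrate aging. Its genes were chosen by their change between a clip at 10 weeks and a clip at 20 weeks of age in the same fish. For each gene and fish the change was the difference in log2(CPM + 1) at 20 minus 10 weeks, where CPM is the count per 1000000 counts of the library. A gene had to have a mean CPM of at least 5, a mean change of at least 0.3 in fish 51 to 84 and a mean change of at most -0.3 in fish 85 to 116. Of 12258 genes with that mean CPM, 556 (4.54%) met both limits, and the 150 with the widest gap between the means of the ranges form the module. For comparison, 641 genes (5.23%) met the limits turned round.

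The series holds 228 libraries from 114 male fish of the wild-derived strain MZM-0410 under normal aging, each clipped at both ages, so that the comparison of the ages is within fish. The labels name no treatment, genotype difference, tank, hatching date, clipping date or hour. Animal numbers fall into 3 ranges that differ in lifespan. Fish 51 to 84 (34 fish) died at a median age of 217 days (range 143 to 392), fish 85 to 116 (32 fish, of which 31 have an age at death) at 409 days (151 to 521), and fish 1 to 50 (48 fish, with 2 numbers not among the samples) at 311 days (145 to 405). Fish 1 to 50 took no part in the choice of the genes, except that the mean CPM was taken over all libraries. All tests below therefore rest on them, or relate values within the other ranges to lifespan, and what is given for the change in fish 51 to 84 and fish 85 to 116 is a description.

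Total counts lay between 15900000 and 37800000 per library. One library each of fish 13, 50, 60 and 78 had a normalization factor (TMM) under 0.8. In 11 fish, numbers 18, 43, 95 to 98 and 100 to 104, neither clip had its labelled partner as the best match in a comparison of genes that keep their level within a fish. The correlation of their own clips was between -0.34 and 0.26. For fish 95 to 98 and 100 to 104, the best match of each clip was a clip of another of these fish. For example, those of fish 97 and 101 matched each other with correlations of 0.875 and 0.857. An exchange of samples within a range leaves the mean change of that range as it is, and without these fish 140 of the 150 genes were chosen again. The change of a single fish, the SD and the number of fish in a direction do rest on the pairing in the labels. Markers of epidermis were high in the clips: for the 6 of 31 listed genes that could be matched, the summed level was 2690 to 6369 CPM, and their lowest member, PKP1, was at 3.44 to 34.3 CPM. ANXA1 and JUP had the highest medians among the 6, at 2220 and 1470 CPM. The fibroblast and bone cell list (6 of 22 matched) had a median sum of 4220 CPM, beside 4771 CPM for epidermis. Muscle markers (3 of 21 matched) had a median sum of 0.667 CPM, but reached 572 CPM in 1 library.

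The count table carries genebuild identifiers. Names were taken from the study's own supplementary tables, which name 5613 of the identifiers, 4122 (33.6%) of the genes with a mean CPM of 5 or more, and 60 (40%) of the module. Most are names of the human orthologue, and the roles given below are those known from mammals unless said otherwise. In 1 further gene the tables gave disagreeing names, and it is left with the 90 unnamed genes. At ranks 1, 2, 5, 7, 8, 9, 11 and 91 the module has 8 listed genes of the circadian clock. In vertebrate cells this is a feedback loop in which ARNTL (BMAL1) with CLOCK drives transcription of its own repressors, the PER, CRY and CIART genes, and of the nuclear receptors NR1D1 and NR1D2, which repress ARNTL. Transcripts of the repressors therefore peak at another hour of the day than that of ARNTL. In zebrafish, clocks also run in peripheral tissues, where light can set them directly.

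Over the module, the mean change of a gene in fish 51 to 84 had a median of 1.11 and lay between 0.31 and 2.88, and in fish 85 to 116 it had a median of -1.02 and lay between -4.23 and -0.31. The medians over all genes with a mean CPM of 5 or more were 0.00 and 0.07. The gap between the ranges was 6.38 for the first gene, 2.01 for the median gene and 1.58 for the last. Per fish, the median change over the 150 genes lay between 0.54 and 1.67 in fish 51 to 84. For fish 85 to 116 it lay between -1.44 and -0.66. No fish of either range thus crossed 0, which the choice of the genes on these same fish favours. In fish 1 to 50 the median change lay between -1.42 and 1.57, with 23 of 48 fish above 0. A single fish had between 113 and 150 of the genes higher at 20 weeks in fish 51 to 84, between 0 and 32 in fish 85 to 116, and between 11 and 142 in fish 1 to 50.

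**Figure D1:**
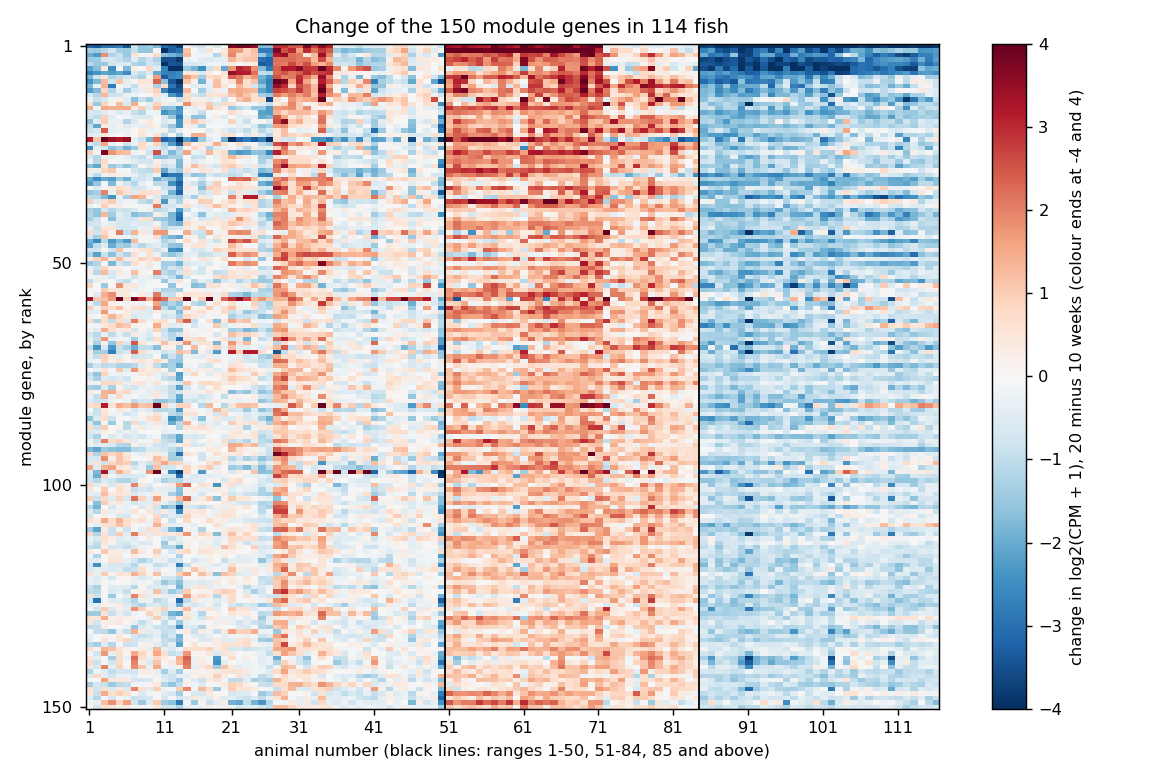
Change in log2(CPM + 1) at 20 minus 10 weeks for the 150 module genes (rows, by rank) in 114 fish (columns, by animal number), red for higher and blue for lower at 20 weeks. Fish 51 to 84 are mostly red and fish 85 to 116 mostly blue, as the choice of the genes requires, and fish 1 to 50 show vertical bands of consecutive fish in both colours.

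The first gene was PER3 (Nfu_g_1_021184), a period gene of the repressor arm. In fish 51 to 84 its lowest, median and highest levels were 16.1, 109.8 and 184 CPM at 20 weeks, against 5.54, 12.7 and 31.2 CPM at 10 weeks. In fish 85 to 116 they were 4.79, 6.85 and 11.3 CPM at 20 weeks, against 108, 160.1 and 217.5 CPM at 10 weeks. The levels of the ages thus did not overlap in fish 85 to 116 and overlapped in fish 51 to 84. The mean change was 2.14 ± 1.90 for fish 51 to 84 and -4.23 ± 0.33 for fish 85 to 116 (SD, n = 34 and 32), and it was below 0 in every fish of the longer-lived range but above 0 in only 24 of 34 fish of the shorter-lived one.

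PER1 (Nfu_g_1_003740), the other period gene of the module, had 7.97, 91.0 and 187 CPM (lowest, median and highest) at 20 weeks, against 2.65, 5.02 and 18.1 CPM at 10 weeks, in fish 51 to 84. In fish 85 to 116 it had 6.64, 13.65 and 29.5 CPM at 20 weeks, against 41.6, 130.5 and 181 CPM at 10 weeks. Its mean change was 2.88 ± 2.15 for the shorter-lived range and -2.74 ± 0.86 for the longer-lived one (SD, n = 34 and 32). CIART (Nfu_g_1_016971), which binds ARNTL and represses its targets, was at rank 5, with mean changes of 1.19 ± 1.30 in fish 51 to 84 and -3.36 ± 0.50 in fish 85 to 116. Its 10-week levels in fish 85 to 116, at 20.7 to 60.1 CPM, were above all of its 20-week levels there, at 2.08 to 4.17 CPM.

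Both NR1D2 genes of the module (Nfu_g_1_013151 and Nfu_g_1_010960) code for orthologues of a nuclear receptor that represses ARNTL. The first had mean changes of 1.19 ± 1.01 in fish 51 to 84 and -2.79 ± 0.44 in fish 85 to 116, and the second of 1.99 ± 1.04 and -1.75 ± 0.84. The second was higher at 20 weeks in all 34 fish of the first range and lower in all 32 of the other. TEF (Nfu_g_1_019542) and HLF (Nfu_g_1_001056), transcription factors of the PAR bZIP family that carry the rhythm to output genes, had mean changes of 1.88 ± 1.16 and 2.05 ± 0.91 in fish 51 to 84. In fish 85 to 116 TEF had -1.60 ± 1.15 and HLF -1.37 ± 0.93. Other genes named HLF on the clock list are not members, and their correlations with PER3 are given below. BHLHE40 (Nfu_g_1_020134), a repressor of ARNTL targets, had a median of 262 CPM at 20 weeks and 111 CPM at 10 weeks in fish 51 to 84, against 119 and 196 CPM in fish 85 to 116.

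**Figure D2:**
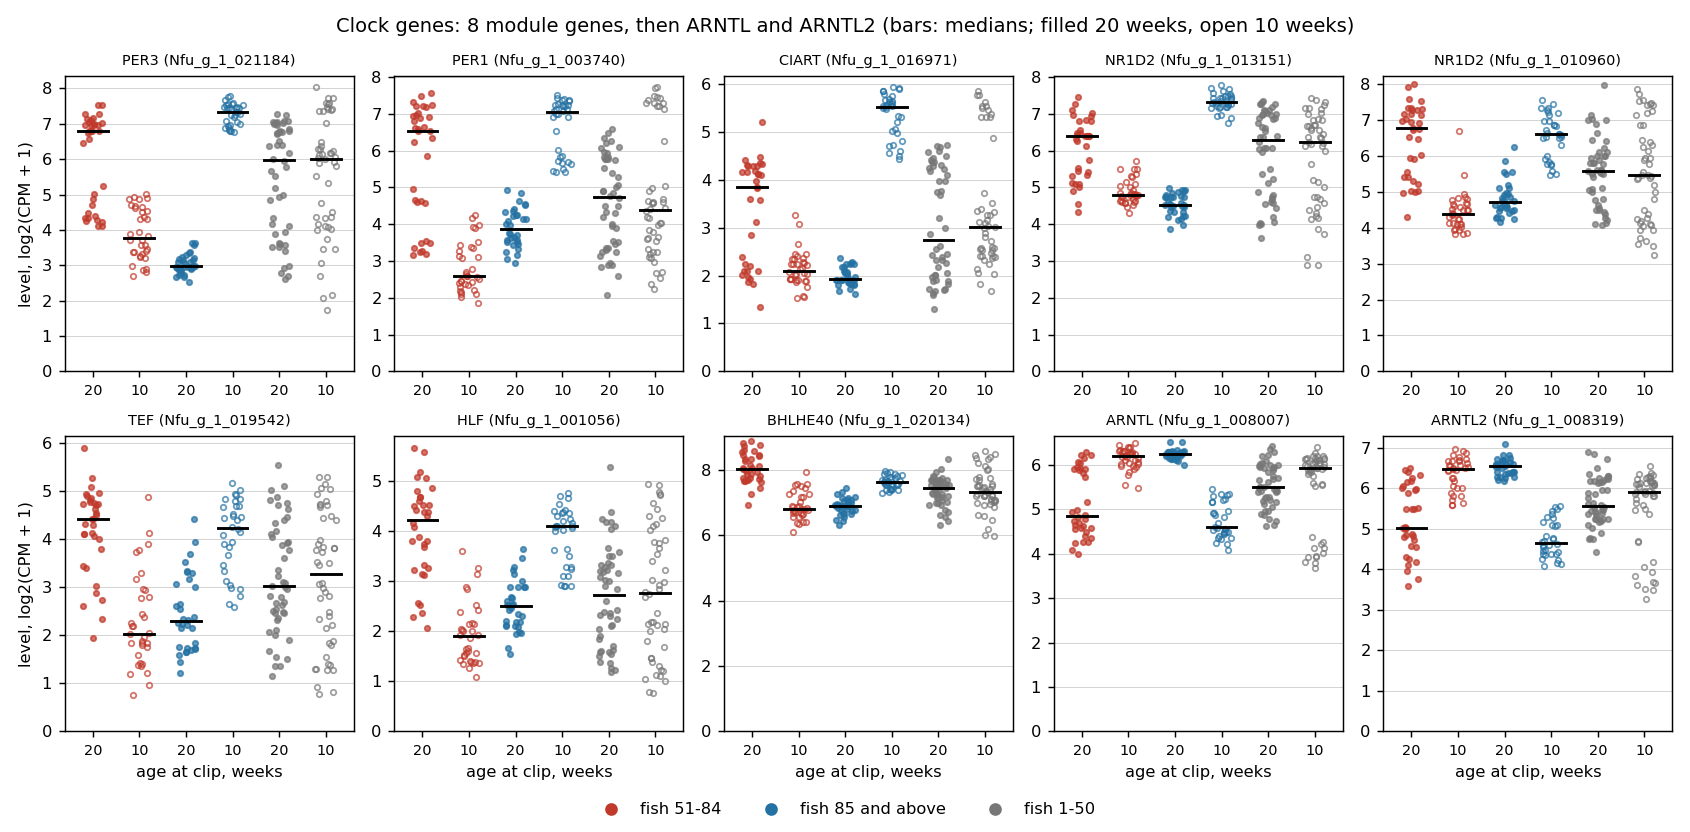
Levels in log2(CPM + 1) of the 8 clock genes of the module and of ARNTL and ARNTL2, 1 point a fish, at 20 weeks (filled) and 10 weeks (open) in fish 51 to 84, fish 85 to 116 and fish 1 to 50, with black bars at the medians. The module genes are higher at 20 weeks in fish 51 to 84 and at 10 weeks in fish 85 to 116, ARNTL and ARNTL2 are the other way round, and PER3 in fish 51 to 84 at 20 weeks falls into 2 clouds.

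The list of clock genes matched 21 genes, of which 19 had a mean CPM of 5 or more. Of all 12258 genes with that mean CPM, 150 are in the module, 4.54% met both limits and 5.23% the limits turned round. Of the 19 clock genes, 8 are in the module, and 2 more (CRY1 and CSNK1D) met both limits at ranks 238 and 432. Another 3 met the limits turned round. The last are ARNTL (Nfu_g_1_008007), with mean changes of -1.02 ± 0.93 in fish 51 to 84 and 1.49 ± 0.40 in fish 85 to 116, ARNTL2 (Nfu_g_1_008319), with -1.13 ± 1.19 and 1.77 ± 0.50, and a further NR1D2 gene (Nfu_g_1_020882), with -0.38 ± 0.92 and 3.59 ± 0.69. ARNTL had a median of 27.8 CPM at 20 weeks and 72.4 CPM at 10 weeks in fish 51 to 84, against 74.8 and 23.2 CPM in fish 85 to 116. PER1, PER3 and CIART and their activator ARNTL thus stood at opposite ends of the contrast that chose the module. PER2, whose zebrafish orthologue per2 is induced by light, had mean changes of 0.11 ± 1.08 and 1.33 ± 0.88 and belongs to neither set.

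The change of the leading genes was not spread evenly within a range. It is given here over blocks of 10 consecutive animal numbers, counted from the start of each range, a division chosen after seeing the data but with borders that use no measured value. In fish 51 to 60 and fish 61 to 70 the change of PER3 lay between 3.08 and 3.94 and between 3.22 and 4.12, in fish 71 to 80 between -0.59 and 4.25, and in fish 81 to 84 between -0.54 and -0.13. Within fish 71 to 80 it was 4.25 in fish 71 and between -0.59 and 0.4 in fish 72 to 80. In the 4 blocks from fish 85 on it lay between -4.79 and -3.62. Fish 81 to 84 thus did not overlap with fish 51 to 70 of their own range. In fish 1 to 50 PER3 was lower at 20 weeks in all 10 fish of 1 to 10, with changes between -3.47 and -0.83. Its change lay between -3.74 and 0.15 in fish 11 to 20, between -1.79 and 3.79 in fish 21 to 30, between -0.98 and 3.73 in fish 31 to 40 and between -0.82 and 0.82 in fish 41 to 50. Within these blocks there were runs of consecutive fish with like changes. PER3 had -3.74 to -3.08 in fish 11 to 13, but -0.77 to 0.15 in fish 14 to 19. Fish 21 to 25 had 3.49 to 3.79, and fish 26 and 27 had -1.79 and -1.72. Fish 31 to 35 had 2.46 to 3.73, but fish 36 to 40 had -0.98 to -0.35. The sign therefore changed within ranges as well as between them.

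**Figure D3:**
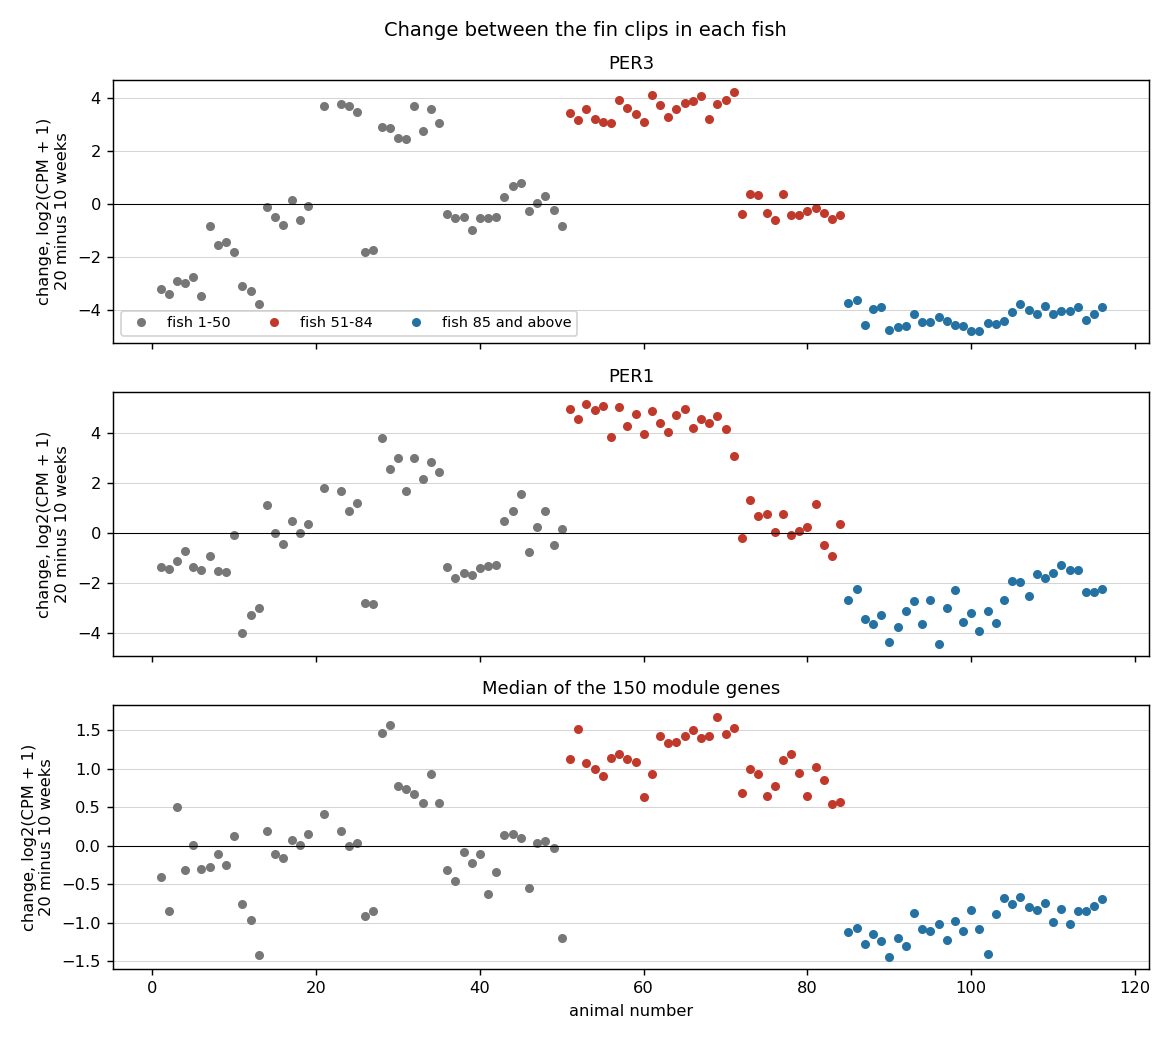
Change in log2(CPM + 1) at 20 minus 10 weeks by animal number, 1 point a fish, for PER3, PER1 and the median of the 150 module genes, with grey for fish 1 to 50, red for fish 51 to 84 and blue for fish 85 to 116. PER3 lies between 3.08 and 4.12 in fish 51 to 70, between -0.54 and -0.13 in fish 81 to 84 and between -4.79 and -3.62 in fish 85 to 116. The median of the module stays above 0 throughout fish 51 to 84, which the choice of the genes favours.

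Levels of PER3 differed between blocks at both ages. The median in fish 61 to 70 was 111 CPM at 20 weeks and 8.33 CPM at 10 weeks. For fish 81 to 84 it was 19.7 CPM at 20 weeks and 27.1 CPM at 10 weeks. In fish 31 to 40 it was 127 CPM at 20 weeks and 93.3 CPM at 10 weeks, while for fish 1 to 10 it was 8.27 and 66.3 CPM. The labels give no hour or date of clipping, so that age, clipping occasion and animal number cannot be told apart in the contrast between the ranges. Over all 150 genes, the clock genes included, the median of the mean change was 1.03 in fish 51 to 60 and 1.46 in fish 61 to 70. It was 1.0 in fish 71 to 80 and 0.71 in fish 81 to 84. In all 4 blocks, 102 of the 150 genes had a mean change of at least 0.3. The choice of the genes favours this, since it used the mean change over these same fish. The count was not made over all genes. In 22 genes the mean change was below 0 in at least 1 block, and genes that shifted in opposite directions between blocks cancel in the median. H1F0 differed by more than PER3, with 3.77 in fish 51 to 60 and -2.56 in fish 81 to 84, where PER3 had 3.37 and -0.36. CIART and aqp1a.1 were also below 0 in fish 81 to 84, with -0.44 and -0.46, whereas VCANA and arg2 were below 0 in fish 51 to 60, with -0.19 and -0.79, and had 2.28 and 1.06 in fish 81 to 84.

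Between the ranges, most of the 150 genes differed at both ages and in opposite directions. The gap that ranked them is the difference at 20 weeks minus that at 10 weeks, so this pattern follows in part from the choice. The counts given here were not made over all genes. Fish 51 to 84 minus fish 85 to 116, the median difference in level over the genes was 1.08 at 20 weeks and -0.98 at 10 weeks in log2(CPM + 1), and 147 of 150 genes were higher in fish 51 to 84 at 20 weeks and lower at 10 weeks. The difference at 20 weeks held more than 75% of the gap in 11 genes, and that at 10 weeks in 6. LPL (Nfu_g_1_022747), lipoprotein lipase, which frees fatty acids from circulating fat, is of the first kind, with a difference of 2.42 at 20 weeks and -0.35 at 10 weeks. H1F0 (Nfu_g_1_022942), a linker histone of resting cells, is of the second kind, with -0.03 at 20 weeks and -2.70 at 10 weeks.

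CREB1, CREM, SIK2 and NR4A3 code for regulators linked to cAMP signalling. They were put together after their values were seen, and no list of that pathway was examined. CREB1 (Nfu_g_1_006012), the transcription factor that cAMP-dependent kinase activates, had medians of 40.5 CPM at 20 weeks and 13.7 CPM at 10 weeks in fish 51 to 84, against 12.3 and 22.1 CPM in fish 85 to 116. CREM (Nfu_g_1_013232), its relative and partial antagonist, had mean changes of 1.14 ± 0.73 and -0.64 ± 1.06. SIK2 (Nfu_g_1_000283), a kinase that restrains CREB coactivators, had 1.19 ± 0.71 and -1.13 ± 0.57, and the orphan nuclear receptor NR4A3 (Nfu_g_1_001278) had 0.91 ± 1.25 and -1.34 ± 1.36. All 4 were higher at 20 weeks in fish 51 to 84 and lower in fish 85 to 116 on average, but only CREB1 and SIK2 were so in at least 31 fish of each range.

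Of the list of immediate early genes, which respond to stimuli without new protein synthesis, 17 had a mean CPM of 5 or more. Of these, 4 met both limits and 2, NR4A3 and SGK1, are in the module, and the medians of the list were 0.64 in fish 51 to 84 and 0.06 in fish 85 to 116. Of the list of genes that glucocorticoids induce, 17 had a mean CPM of 5 or more, and 5 of these met both limits. Of all genes with that mean CPM, 4.54% met both limits. The medians of this list were 0.9 in fish 51 to 84 and -0.2 in fish 85 to 116. Its genes PER1, which is also on the clock list, SGK1 and fkbp5 are in the module. SGK1 (Nfu_g_1_018788), a kinase that acts on ion transport, had 52.5 to 96.6 CPM at 10 weeks in fish 85 to 116 and was lower in all 32 of these fish at 20 weeks, at 18.0 to 36.0 CPM. Its mean change was 0.53 ± 0.60 in fish 51 to 84 and -1.38 ± 0.32 in fish 85 to 116. fkbp5 (Nfu_g_1_021435), a chaperone of the glucocorticoid receptor, ranged from 1.31 to 802 CPM at 10 weeks in fish 51 to 84, and its changes of 1.14 ± 1.68 and -0.72 ± 1.28 were smaller than the spread between fish. TSC22D3, KLF9 and ZBTB16A, other genes of the list, are not members. TSC22D3 (Nfu_g_1_003683) had mean changes of 2.17 ± 0.70 in fish 51 to 84 and -0.25 ± 0.74 in fish 85 to 116, so that it missed the limit in the second range.

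Other named members code for metabolic enzymes, which are described together for their roles and were not counted against a list. CYP3A43 (Nfu_g_1_007097), a cytochrome P450 of the family that oxidizes steroids and xenobiotics, was at rank 3 and moved one way in every fish of a range. It had 53.8, 181 and 559 CPM at 20 weeks, against 11.5, 40.5 and 190.6 CPM at 10 weeks, in fish 51 to 84. In fish 85 to 116 it had 12.6, 27.4 and 146 CPM at 20 weeks, against 109.3, 179 and 424 CPM at 10 weeks. Close paralogs are common in this family, and reads shared between them could be split by the counting. PRODH (Nfu_g_1_006595), proline dehydrogenase, had a median of 1021 CPM at 20 weeks and 272 CPM at 10 weeks in fish 51 to 84, against 311 and 932 CPM in fish 85 to 116.

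Among enzymes of the methionine cycle, mat2aa (Nfu_g_1_009023), which makes the methyl donor S-adenosylmethionine, had mean changes of 0.66 ± 0.82 in fish 51 to 84 and -1.62 ± 0.41 in fish 85 to 116. bhmt (Nfu_g_1_009142), which remethylates homocysteine, had 1.46 ± 0.96 and -1.15 ± 0.66. ABAT (Nfu_g_1_003006), which degrades GABA, had 1.06 ± 0.58 and -1.36 ± 0.41, and arg2 (Nfu_g_1_021857), the mitochondrial arginase, had 0.43 ± 1.15 and -1.88 ± 0.62. PHKA2 (Nfu_g_1_003293), a regulatory subunit of the kinase that activates glycogen phosphorylase, was at rank 10, with 1.95 ± 1.19 and -1.48 ± 0.82. The glucuronosyltransferases ugt5a1 and ugt1ab had 1.34 ± 0.93 and 1.33 ± 0.51 in fish 51 to 84, against -1.14 ± 0.71 and -0.95 ± 0.26 in fish 85 to 116. In the handling of vitamin A, RBP4 (Nfu_g_1_022977), the retinol carrier of plasma, had 0.99 ± 0.71 and -0.87 ± 0.28, and ALDH1A2 (Nfu_g_1_003908), which makes retinoic acid, had 1.32 ± 0.82 and -0.60 ± 0.63.

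The remaining named genes among the first 25 are tinagl1 (Nfu_g_1_016218), a matricellular protein, with mean changes of 1.32 ± 0.70 and -1.50 ± 0.37, and PAQR6 (Nfu_g_1_010933), a membrane progestin receptor, with 1.34 ± 0.53 and -1.43 ± 0.37. USP2A (Nfu_g_1_003403), orthologue of a deubiquitinase that acts on clock proteins, had 0.61 ± 0.69 and -1.87 ± 0.37. VCANA (Nfu_g_1_019317), the proteoglycan versican, is the module's only gene of the extracellular matrix list, with 0.89 ± 1.27 and -1.20 ± 0.74. In 10 of the 150 genes every one of the 34 fish of 51 to 84 was higher at 20 weeks and every one of the 32 fish of 85 to 116 lower. With names these are CYP3A43, NR1D2 (Nfu_g_1_010960), PAQR6, CAMTA1, ugt1ab, PRRT4 and CDC42EP2. The module was chosen for this contrast, and the same count was not made over all genes.

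The 90 unnamed genes had a median mean change of 1.01 in fish 51 to 84 and -0.98 in fish 85 to 116, beside 1.19 and -1.08 for the 60 named ones. The first of them, Nfu_g_1_010177 at rank 4, had 2.0, 10.3 and 37.7 CPM at 20 weeks, against 1.27, 1.99 and 3.73 CPM at 10 weeks, in fish 51 to 84. In fish 85 to 116 it had 0.523, 1.25 and 2.58 CPM at 20 weeks, against 8.64, 19.9 and 30.4 CPM at 10 weeks, without overlap of the ages. Nfu_g_1_009697 at rank 6 was higher at 10 weeks in every fish of 85 to 116, with 11.6 to 132 CPM at 20 weeks and 245 to 647 CPM at 10 weeks.

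Of 24 pathway lists, 20 have no gene in the module. The lists had 5 to 41 genes with a mean CPM of 5 or more, and the module holds 150 of 12258 such genes. A list without a member is therefore no result about its pathway. The proteasome list, with 24 genes of a mean CPM of 5 or more, had 0 members. It had 17 genes past the limits turned round, which 5.23% of all genes with that mean CPM met. Its median mean change was -0.70 in fish 51 to 84 and 0.37 in fish 85 to 116. The cell cycle list (30 genes) had a median of -1.10 and 0.05. None of the 9 lists of cell type markers has a gene in the module, but each had only 0 to 7 genes with a mean CPM of 5 or more. Of the fibroblast and bone cell list 6 of 22 genes could be matched, all of them detected in every library. Their summed level was lower at 20 weeks in both ranges, with medians of 1864 CPM (679 to 2539) at 20 weeks and 4063 CPM (2260 to 5515) at 10 weeks in fish 51 to 84, against 4077 CPM (2464 to 5473) and 6345 CPM (4754 to 8348) in fish 85 to 116. Its direction did not turn between the ranges as that of the module did. The endothelium list did turn the same way as the module: its 5 matched genes of 18 had mean changes of 0.23 to 0.44 in fish 51 to 84 and of -0.33 to -0.02 in fish 85 to 116, with PECAM1, an adhesion molecule of endothelial cells, at 0.44 and -0.16. Their summed level had a median of 98.2 CPM (73.7 to 153) at 20 weeks and 76.7 CPM (58.6 to 99.4) at 10 weeks in fish 51 to 84, against 81.7 CPM (56.6 to 128) and 95.8 CPM (79.3 to 138) in fish 85 to 116. In fish 1 to 50, 4 of these 5 endothelium genes were lower at 20 weeks and 0 higher in the edgeR test given below. Of all genes tested there, 14.0% were lower. Only 3 of the 5 had a mean CPM of 5 or more. The part of either list in the module's values was not tested. In bulk tissue, fewer cells of a type and less RNA per cell cannot be told apart.

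Fish 1 to 50 show what the module did where its change was not selected on. In edgeR's quasi-likelihood test with the fish as a block (two-sided, Benjamini-Hochberg adjusted p under 0.05 over 17116 genes), 12 of 150 genes were higher and 15 lower at 20 weeks. Of all genes tested, 14.0% were higher (2403 genes) and 14.0% lower (2396 genes), while the counts above make 8.0% and 10.0% of the module. The median log2 fold change was 0.02 over the module and 0.02 over all genes. The standard error was larger in the module, with a median of 0.13 beside 0.07, and so was the spread of the change between fish, with a median SD of 0.87 beside 0.43 over genes with a mean CPM of 5 or more. The module thus had no common direction in fish 1 to 50 and varied more between fish than most genes. The test takes the fish as independent, but the change of PER3 was alike in runs of consecutive fish. Standard errors and p-values of this test, here and below, do not allow for such runs.

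None of the clock genes of the module was called in fish 1 to 50. PER3 had 5.05, 61.8 and 153 CPM at 20 weeks, against 2.32, 63.3 and 262 CPM at 10 weeks, and a log2 fold change of -0.15 ± 0.36 (SE, n = 48, edgeR adjusted p = 0.793). PER1 had -0.14 ± 0.30 (edgeR adjusted p = 0.757) and NR1D2 (Nfu_g_1_010960) 0.01 ± 0.26 (edgeR adjusted p = 0.988). PER3 was higher in some fish and lower in others, so that a mean near 0 does not stand for small changes in single fish. Of the clock list outside the module, PER2 was higher at 20 weeks, with 0.69 on the log2 scale (edgeR adjusted p = 0.000382). Over the list 2 of 21 genes were higher and 1 was lower, beside 14.0% of all genes tested in each direction.

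Among the 27 genes that were called, only 2 had an absolute log2 fold change of 1 or more. Nfu_g_1_015991 had medians of 25.1 CPM at 20 weeks and 6.05 CPM at 10 weeks. It was higher at 20 weeks in 46 of 48 fish, with a log2 fold change of 2.20 ± 0.23 (SE, edgeR adjusted p = 2.91e-10). H1F0 had medians of 24.4 and 71.4 CPM and was higher in only 9 of 48 fish, with -1.41 ± 0.33 (edgeR adjusted p = 0.000931). The next ones up were Nfu_g_1_015658 (0.79 ± 0.16) and Nfu_g_1_020815 (0.77 ± 0.19), and the next ones down were Nfu_g_1_011169 (-0.92 ± 0.17) and Nfu_g_1_022203 (-0.58 ± 0.09). Of the 60 named genes 7 were called. PDLIM2 and arg2 were higher at 20 weeks, and H1F0, LPL, bhmt, SMTNL and aqp1a.1 were lower.

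The genes of the module varied together in fish 1 to 50. The mean pairwise Pearson correlation over the 150 genes was 0.399 in the change, 0.378 in levels at 20 weeks and 0.446 in levels at 10 weeks, beside 0.103, 0.117 and 0.0804 over all 12258 genes with a mean CPM of 5 or more. These are descriptions across 48 fish, whose levels also differ between blocks of animal numbers. Among the 8 clock genes of the module the mean was 0.732, 0.675 and 0.817. At 20 weeks PER3 had a correlation of 0.976 with NR1D2 (Nfu_g_1_013151), 0.908 with PER1 and 0.889 with CIART, but -0.891 with ARNTL, -0.827 with ARNTL2 and -0.890 with NR1D2 (Nfu_g_1_020882). The opposition of PER3 to ARNTL seen between the ranges was therefore present among fish whose change the choice of genes did not use. Genes of the same name differed. At 20 weeks HLF of the module had a correlation of 0.734 with PER3, but the HLF genes outside it had 0.261 (Nfu_g_1_023410), -0.521 (Nfu_g_1_016584) and -0.676 (Nfu_g_1_000888). NR1D2 (Nfu_g_1_010257), also outside the module, had -0.595. Over the whole module, the correlation with PER3 was above 0 for 142 of the other genes and above 0.5 for 60 of them at 20 weeks. The lowest correlation belonged to H1F0 at both ages, with -0.127 at 20 weeks and -0.0722 at 10 weeks.

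**Figure D4:**
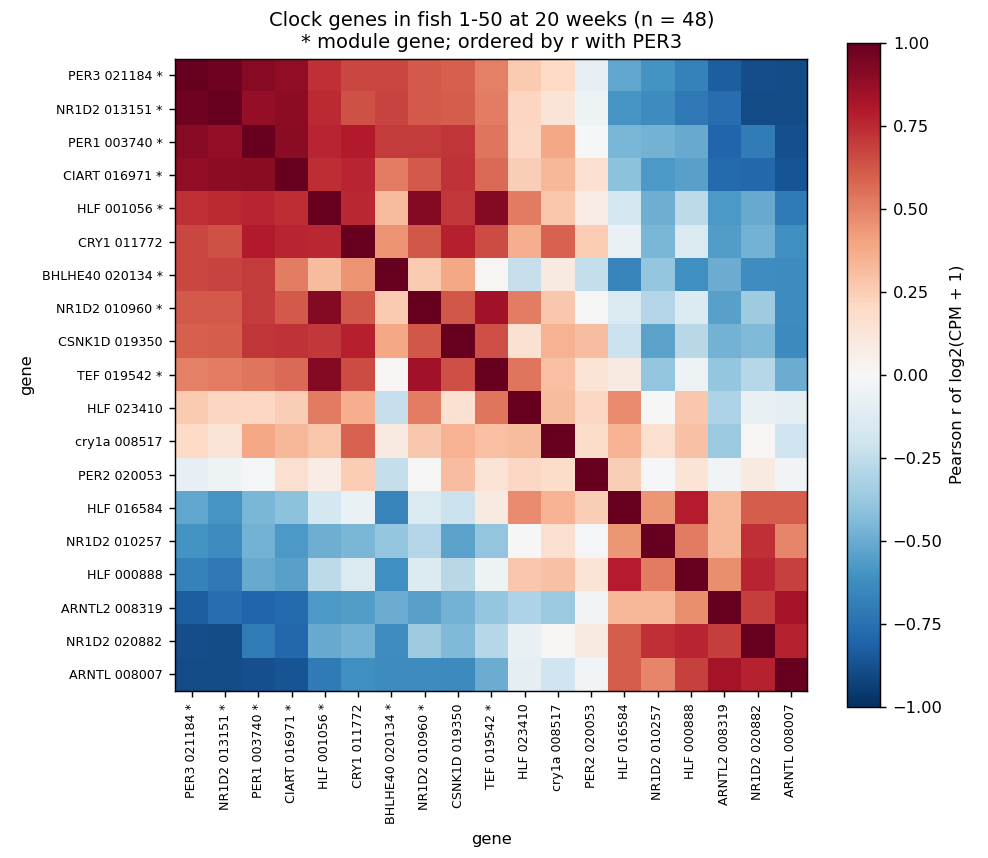
Pearson correlation of log2(CPM + 1) at 20 weeks between the 19 clock genes with a mean CPM of 5 or more in fish 1 to 50 (n = 48), ordered by their correlation with PER3, with an asterisk at module genes. The 8 module genes stand at the top left with PER3, and ARNTL, ARNTL2 and NR1D2 (Nfu_g_1_020882) at the opposite end, with -0.891, -0.827 and -0.890.

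Whether the module goes with lifespan was asked in fish 1 to 50 with a Cox proportional hazards model for each gene, whose hazard ratio is the factor in the risk of death per unit of log2. For the level at 20 weeks, 22 of the 150 genes had an adjusted p under 0.05 over all 17116 genes, all with a higher risk at a higher level. Of all genes tested, 0.643% passed in that direction. At an unadjusted p under 0.05, 82 genes of the module passed with a higher risk and 0 with a lower one, against 10.2% of all genes with a higher risk. The median hazard ratio was 1.59 over the module and 1.0 over all genes. These 150 genes vary together, so that their count is not one of independent results.

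The 22 genes include 3 of the clock: NR1D2 (Nfu_g_1_010960) with a hazard ratio of 2.49 (95% interval 1.67 to 3.71, adjusted p = 0.0185), HLF with 1.93 (1.43 to 2.60, adjusted p = 0.0207) and TEF with 1.61 (1.25 to 2.09, adjusted p = 0.042). SGK1 had 5.65 (2.5 to 12.8, adjusted p = 0.0272), mat2aa 2.61 (1.65 to 4.15, adjusted p = 0.0272) and SIK2 2.23 (1.46 to 3.40, adjusted p = 0.0375). The kinase gene STK35, FAM107B, MAGIX, USP2A and CAMTA1 are the other named ones, with hazard ratios of 1.78 to 3.53. PER3 itself had 1.42 (adjusted p = 0.0799) and PER1 1.52 (adjusted p = 0.0863), which did not pass. In the other direction the lowest p-values belonged to Nfu_g_1_015991 with 0.792 (adjusted p = 0.244) and Nfu_g_1_006610 with 0.813 (adjusted p = 0.463).

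Whether genes passed the adjusted threshold rested on few fish. Without fish 9 and 34, which died at 146 and 145 days, 0 of the 150 genes passed, with a lowest adjusted p of 0.0567 in the Cox models. The median hazard ratio stayed at 1.58, and 81 genes had an unadjusted p under 0.05 with a higher risk, against 9.84% of all genes. Without fish 18 and 43, whose clips did not match, 57 genes of the module passed. Of all 17116 genes tested, 1540 passed then, instead of 207, and 6 passed without fish 9 and 34. Blocks of 10 consecutive animal numbers were used as strata, an analysis chosen after seeing the data that compares only fish of the same block. With these strata, 0 genes of the module and 0 of all genes passed. At an unadjusted p under 0.05, 31 genes had a higher risk, against 3.76% of all genes, and the median hazard ratio was 1.44. Lifespan differed between these blocks, with a median age at death of 382 days in fish 11 to 20 and of 282.5 days in fish 31 to 40, while the median level of PER3 at 20 weeks was 13.7 and 127 CPM. Animal number and the level of the module thus moved together with lifespan, and their parts cannot be told apart between blocks.

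For the change between the clips, 0 of the 150 genes passed the adjusted threshold in fish 1 to 50 (lowest adjusted p = 0.13, with 7 of all 17116 genes called). At an unadjusted p under 0.05, 57 genes had a higher risk with a larger increase, against 8.86% of all genes. With blocks of 10 fish as strata it was 6 genes, against 2.59% of all genes. USP2A and mat2aa had the lowest p in this direction, with hazard ratios of 1.53 and 1.58. For the level at 10 weeks, 0 genes passed and 1 had an unadjusted p under 0.05 with a higher risk, against 0.911% of all genes, and the median hazard ratio was 0.992. In fish 1 to 50, genes of the module thus passed the adjusted threshold only for the level at 20 weeks. The change leaned the same way without passing, with a hazard ratio above 1 in 126 of 150 genes, beside 51.1% of all genes. Whether the strength of the relation differs between the level at 20 weeks, the level at 10 weeks and the change was not tested.

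**Figure D5:**
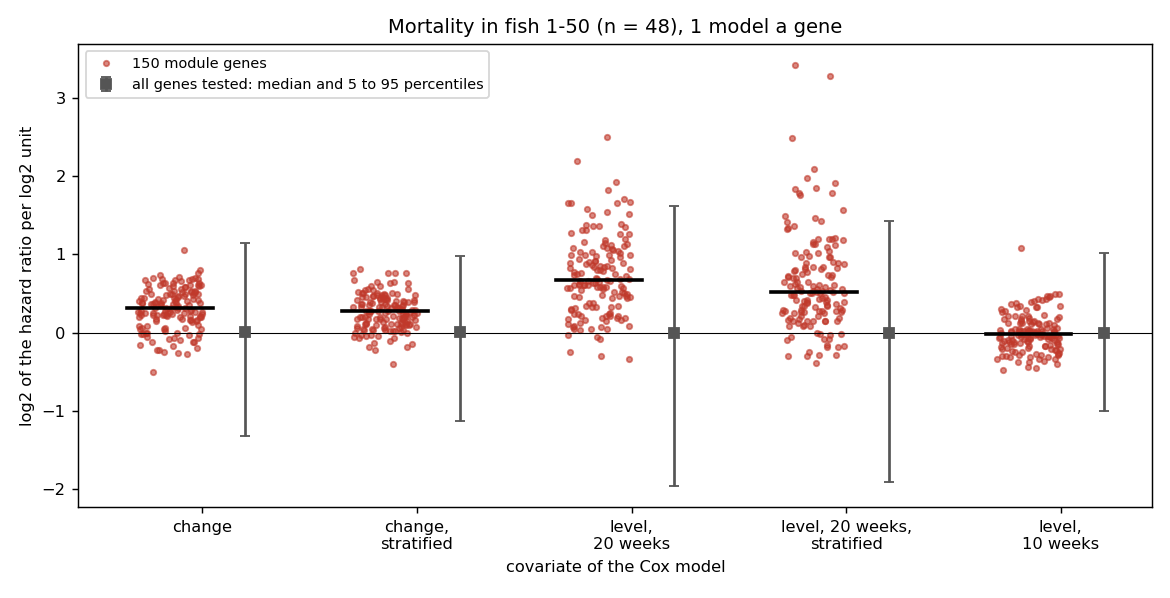
Log2 of the hazard ratio per log2 unit in fish 1 to 50 (n = 48) for the 150 module genes (red points, black bar at their median) and for all genes tested (grey square at the median, line from the 5 to the 95 percentile), with the change, the 20-week level or the 10-week level as covariate, the first and second also with blocks of 10 animal numbers as strata. The module lies mostly above 0 for the level at 20 weeks, where 144 of 150 genes had a hazard ratio above 1, and around 0 for the level at 10 weeks, where 71 had.

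Within fish 51 to 84 and fish 85 to 116, with the range as a stratum and 65 fish of known lifespan, no gene of the module passed the adjusted threshold. For the change, 2 genes had an unadjusted p under 0.05 with a higher risk, against 0.97% of all genes, and the median hazard ratio was 1.10. For the level at 20 weeks it was 6 genes, against 2.93% of all genes, and the median hazard ratio was 1.11. The shares of 1.33% and 4.0% of the module were close to those backgrounds.

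At the end of the module the choice was narrow. The gaps of the last genes taken, aqp1a.1 (Nfu_g_1_020222) and Nfu_g_1_007925, were 1.583 and 1.582, and those of the first genes left out, ATF6 (Nfu_g_1_010169) and FAM160A1 (Nfu_g_1_013636), were 1.580 and 1.572. A second gene named FAM160A1 (Nfu_g_1_007766) is a member at rank 108.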

How the data were processed

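Counts per gene and library were used as deposited by the authors: whole-number counts without normalization. Tools listed by the submitters' processing notes are featureCounts 1.5.0 for counting, TopHat2 2.1.0 for alignment and bcl2fastq 1.8.4. The study's methods refer to earlier work for these longitudinal libraries. They name a build and annotation for other RNA libraries only, so those of the fin clips are taken as not given. The library kit does not mark the strand, so overlapping genes on opposite strands cannot be told apart. All columns matched 1 sample each. Clips were paired by the fish in the labels, and replicates are single fish.

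CPM were computed from column totals. The change was tested in fish 1 to 50 with edgeR 4.0.16 in R 4.3.3 (filterByExpr, 17116 genes, TMM factors, quasi-likelihood test, fish as block). Cox models (survival, Efron ties, 1 a gene, Wald test) used log2 of counts normalized by DESeq2 size factors plus 1, with Benjamini-Hochberg adjustment at 0.05. In simulated counts of the first comparison (4000 genes), 98 of 100 genes changed by 0.5 and 100 of 100 changed by 1 on the log2 scale were recovered, with 8 false calls. The simulated fish were independent, with a common dispersion for all genes and no runs of fish alike in their change. Recovery and false calls for genes such as PER3 were therefore not measured. In simulated data for mortality and the change in fish 1 to 50 (4000 genes), 163 of 200 linked genes were recovered, with 9 false calls. All linked genes there followed a common factor that set the hazard, again in independent fish, so recovery of weaker relations was not measured.

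The deposited counts carry no names. Those of the study's tables, which were shortened, were used without their values, and 0 identifiers matched the reference gene table. No sequence is shown because none was at hand for these identifiers. The module and all gene lists were chosen with earlier results of these data known. Genes named are the first 5, the first 15 with a name, up to 3 of each pathway list, the 3 strongest called in each direction in fish 1 to 50, the 2 lowest p of the Cox models in each direction and those at the limit of the 150. Other named genes were picked after their values were seen, and the blocks of 10 animal numbers, whose borders use no measured value, were chosen after seeing the data. Alternatives changed the normalization, filter, pseudocount, tool and fish left out.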

Additional observations from a re-analysis of the deposited data

Results flagged for a closer look

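In 10 genes of the module the change between the clips had opposite signs in these ranges without exception. Each of the 34 fish of 51 to 84 was higher at 20 weeks and each of the 32 fish of 85 to 116 lower. In 9 of these 32 fish the clips did not match, and their direction rests on the pairing in the labels. Since the genes were chosen for this contrast, the difference was not tested, and the same count was not made over all genes. The gap between the mean changes was 4.69 for CYP3A43, 3.74 for NR1D2 (Nfu_g_1_010960), 2.91 for Nfu_g_1_020760, 2.77 for PAQR6, 2.32 for CAMTA1, 2.28 for ugt1ab, 2.0 for PRRT4, 1.82 for Nfu_g_1_004274, 1.74 for Nfu_g_1_014986 and 1.70 for CDC42EP2, in log2(CPM + 1). PER3 and PER1 are not among them, since 10 and 4 of the 34 fish of 51 to 84 were not higher at 20 weeks. Groups of fish were too large for the test of single outlying samples.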

How the results depend on the processing

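Between 126 and 149 of the 150 genes were chosen again under 7 other settings of the rule, and the 8 clock genes in each. The count called in fish 1 to 50 was 25 to 35 under 8 alternatives, beside 27, and 29 without the fish as a block (no replicate block), where 4169 of all genes were called instead of 4799. For mortality and the level at 20 weeks in fish 1 to 50, beside 22 genes, 13 passed with no filter on low counts, where more genes share the adjustment, 0 without the 2 fish that died by week 24, 57 without the 2 fish whose samples did not match and 0 with blocks of 10 animal numbers as strata. Of all genes, 105, 6, 1540 and 0 passed under these settings in turn and 360 without low normalization factors, instead of 207, and for the change 0 instead of 7 passed under 6 of 7 alternatives. With the blocks, 3.76% of all genes had an unadjusted p under 0.05 with a higher risk, instead of 10.2%. For the change it was 2.59% instead of 8.86%. The count in the module was 31 instead of 82, and for the change 6 instead of 57. For the level at 10 weeks it was 0 instead of 1 with the blocks, without early deaths and without unmatched fish. Within fish 51 to 84 and fish 85 to 116 it was 1 instead of 2 for the change without unmatched fish, and for the level at 20 weeks 0 without early deaths and 1 without unmatched fish, instead of 6. The shares of all genes there were 0.736%, 1.82% and 1.78% in turn. The causes were not tested. No called result turned its direction under these alternatives. Unmatched fish and blocks as strata were chosen after seeing the data. With 48 fish in the first range, 2 fish decided whether genes passed the adjusted threshold for the level at 20 weeks. The median hazard ratio of the module was 1.58 without them and 1.59 with them.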
